A study of Mus musculus with 36 samples.

Results

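Skeletal muscle and squamous epithelium are not tissues of the gas-exchanging lung, yet their transcripts were read in part of the lung libraries of this study. The genes described here are 31 of the 20098 genes in each file, 17 of fast skeletal muscle and 14 of stratified squamous epithelium. They were picked by symbol because their levels in the 18 lung libraries had already been seen to vary widely and together. Their lung levels are therefore given as a description, and support no claim that the members differ from other genes.

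All mice were male wild-type C57BL/6J, 14 weeks old when exposure began, and each of the 6 groups has 3 lung and 3 liver libraries. Mice with type 1 diabetes, made by repeated injection of streptozotocin at 50 mg/kg on a normal diet, breathed ambient particulate matter (PM) in group T1DE and filtered air in group T1DC. Mice with diet-induced obesity (DIO), fed a 45% high-fat diet, breathed PM in group DIOE and filtered air in group DIOC, and mice on a normal diet (ND) breathed PM in group NDE and filtered air in group NDC. PM exposure ran for 4 weeks, and library names join group and replicate number, so NDC2 is replicate 2 of group NDC. Streptozotocin destroys pancreatic beta cells and is a chemical model of diabetes, and the tissue taken for RNA was a small frozen piece, of which the sources used here do not give the position in the lung. The labels do not say which lung and liver libraries came from 1 animal.

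A stratified squamous epithelium is built in layers. Basal cells divide and carry filaments of Krt5 and Krt14, cells above them switch in lining mucosa to Krt4 and Krt13, and the surface cells build a cornified envelope from loricrin, small proline-rich and late cornified envelope proteins. Fast skeletal muscle contracts when calcium, released through Ryr1 and pumped back by Atp2a1, binds troponin on the actin filament and lets myosin pull. In the mouse the oesophagus has both a cornified squamous lining and a coat of skeletal muscle, while lung parenchyma has neither, although basal cells of the large airways also make Krt5 and Krt14.

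Lung libraries held an estimated 15950000 to 20300000 reads. On a transcript of 1000 bases 1 read is worth about 0.0493 to 0.0627 FPKM, so values near 0.1 there rest on very few reads. A longer transcript has more reads at the same FPKM. The lung label was borne out by its defining genes in all 18 libraries: Sftpc, surfactant protein C of alveolar type 2 cells, lay between 12035 and 24262 FPKM, and Ager of alveolar type 1 cells between 1008 and 1976 FPKM. Genes of other tissues stood apart in 1 or a few libraries. The summed level of 12 hepatocyte genes was 849.5 FPKM in DIOC3 and 463.5 FPKM in DIOE1 against 4.43 to 162 FPKM in the other 16. T1DE3 alone had Rag1 of developing thymocytes at 19.7 FPKM, against at most 0.18 FPKM elsewhere, and NDE1 had the atrial hormone gene Nppa at 708 FPKM.

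Krt13 (gene 16663, chr11:100117327-100121566 of GRCm38), the type I keratin of suprabasal mucosal cells, was the member with the highest level. It read 0.54, 404 and 0.26 FPKM in T1DE, 799, 413 and 339 FPKM in T1DC, 770, 501 and 234 FPKM in DIOE, 848, 1487 and 0.33 FPKM in DIOC, 0.50, 0.29 and 0.36 FPKM in NDE, and 0.23, 288 and 1.71 FPKM in NDC. A library had either at least 234 FPKM or at most 1.71 FPKM of Krt13, with nothing between. The high libraries were 10 in number, with 1 in T1DE, 3 in T1DC, 3 in DIOE, 2 in DIOC, 0 in NDE and 1 in NDC. These 10 are T1DE2, T1DC1, T1DC2, T1DC3, DIOE1, DIOE2, DIOE3, DIOC1, DIOC2 and NDC2, and they are called the Krt13-high libraries in what follows. The name describes values and is not a group of the study.

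Krt4, the type II keratin that pairs with Krt13, took the same course. Its FPKM was 0.22, 191 and 0.47 in T1DE, 238, 245 and 163 in T1DC, 421, 231 and 148 in DIOE, 368, 573 and 0.08 in DIOC, 0.89, 0.27 and 0.23 in NDE, and 0.03, 150 and 1.25 in NDC. The ratio of Krt13 to Krt4 stayed between 1.58 in DIOE3 and 3.35 in T1DC1 over the 10 Krt13-high libraries, a range of 2.12 times.

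The basal keratins were far lower and less sharply divided. Krt5 read 0.02, 21.9 and 7.03 FPKM in T1DE, 8.28, 21.2 and 4.60 FPKM in T1DC, 36.9, 11.2 and 8.72 FPKM in DIOE, 18.5, 26.5 and 0.05 FPKM in DIOC, 2.72, 0.34 and 0.05 FPKM in NDE, and 0, 7.87 and 1.05 FPKM in NDC. Its partner Krt14 read 0.31, 14.5 and 2.94 FPKM in T1DE, 5.57, 8.95 and 4.67 FPKM in T1DC, 25.6, 6.29 and 4.59 FPKM in DIOE, 11.1, 15.1 and 0.50 FPKM in DIOC, 0.88, 1.18 and 0.53 FPKM in NDE, and 0.39, 3.31 and 0.32 FPKM in NDC. T1DE3 is the exception among the other 8 libraries: its Krt5 of 7.03 FPKM lay above that of T1DC3, a Krt13-high library. In T1DE3 the related Krt17 (4.82 FPKM) and the basal cell factor Trp63 (2.03 FPKM) were also read, beside the thymocyte genes Dntt (32.3 FPKM) and Ccl25 (17.4 FPKM, a chemokine of thymic epithelium). Whether these go with its Krt5 was not tested.

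Genes of the cornified envelope were divided at the same place. Lor, which encodes loricrin, the main protein of the envelope, read 0.24, 47.6 and 0.99 FPKM in T1DE, 122, 76.2 and 59.0 FPKM in T1DC, 113, 131 and 82.9 FPKM in DIOE, 178, 246 and 0.47 FPKM in DIOC, 0.52, 0.27 and 0.15 FPKM in NDE, and 0.21, 42.8 and 0.46 FPKM in NDC. Sprr3, a small proline-rich envelope precursor, read 0, 29.0 and 0 FPKM in T1DE, 68.7, 39.4 and 43.7 FPKM in T1DC, 79.7, 53.6 and 32.6 FPKM in DIOE, 83.2, 122.97 and 0 FPKM in DIOC, 0.10, 0.05 and 0 FPKM in NDE, and 0, 24.9 and 0.15 FPKM in NDC. Sprr3 was at 0 in 5 of the 18 libraries, and its highest value outside the Krt13-high libraries was 0.15 FPKM.

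The other squamous members repeated this order. In the 10 Krt13-high libraries the secreted differentiation protein gene Krtdap ran from 117 to 561 FPKM, Crct1 of the epidermal differentiation complex from 35.3 to 220 FPKM, Lce3b, a late envelope protein gene, from 15.3 to 96.4 FPKM, and Sprr1a from 4.68 to 26.5 FPKM. There the metallothionein Mt4 ran from 24.2 to 114 FPKM, the beta-defensin Defb4 from 28.4 to 183 FPKM and the little studied Fam25c from 23.1 to 110 FPKM. In the other 8 libraries none of these 7 genes passed 0.98 FPKM. Krt6a, a keratin of wounded and oral epithelium, was the exception of its set and nearly absent: 0, 0.18 and 0.15 FPKM in T1DE, 0.10, 0.14 and 0.03 FPKM in T1DC, 0.08, 0.08 and 0 FPKM in DIOE, 0.04, 0.07 and 0 FPKM in DIOC, 0, 0 and 0.02 FPKM in NDE, and 0, 0.08 and 0 FPKM in NDC. Krt6a shares 43.6% of its 50-base words with Krt6b, so reads of the pair may have been divided between them.

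**Figure D1:**
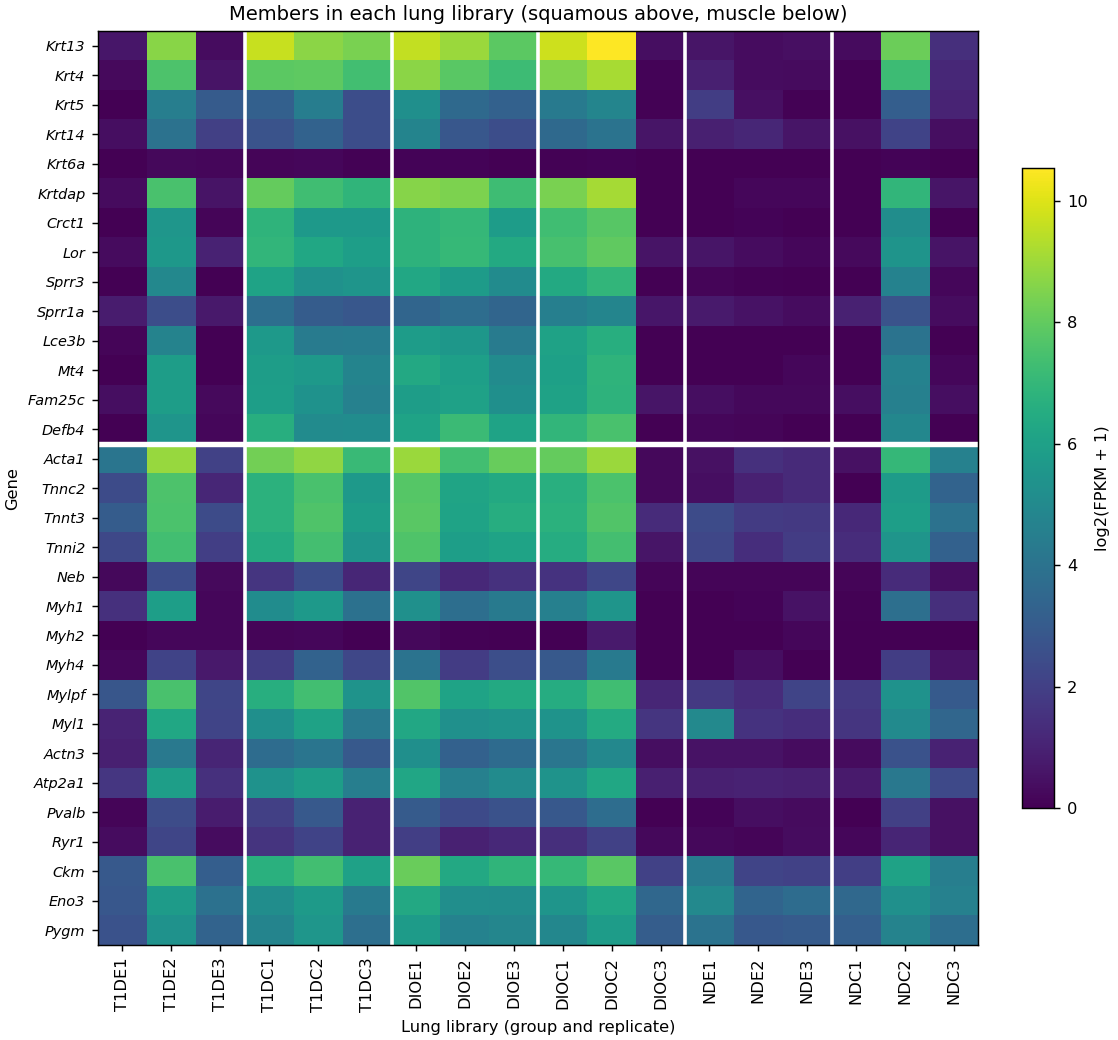
Level of each of the 31 members (rows, squamous above and muscle below the white line) in each of the 18 lung libraries (columns, white lines between groups), as log2(FPKM + 1). The same 10 columns are bright in both blocks, Krt6a and Myh2 are dark throughout, and NDC3 shows muscle genes at middling levels with squamous genes near 0.

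Acta1 (gene 11459, chr8:123891758-123894775), the alpha-actin of the skeletal thin filament, led the muscle members. It read 16.1, 486 and 3.11 FPKM in T1DE, 312, 438 and 140 FPKM in T1DC, 495, 161 and 269 FPKM in DIOE, 264, 498 and 0.17 FPKM in DIOC, 0.40, 1.77 and 1.42 FPKM in NDE, and 0.38, 130 and 23.5 FPKM in NDC. The 10 Krt13-high libraries were also the 10 with the most Acta1, from 130 FPKM upwards. Below them the fall was less abrupt than for Krt13, since NDC3 held 23.5 and T1DE1 16.1 FPKM.

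The fast troponin genes followed Acta1 closely. Tnnc2 (calcium-sensing subunit) ran from 49.3 to 215 FPKM in the Krt13-high libraries, Tnnt3 (tropomyosin-binding subunit) from 57.9 to 230 FPKM and Tnni2 (inhibitory subunit) from 44.3 to 196 FPKM. In the other 8 libraries their highest values were 9.29, 14.8 and 8.65 FPKM, each in NDC3. Neb, which encodes the giant ruler protein nebulin, stayed low, between 1.18 and 4.65 FPKM in the Krt13-high libraries against at most 0.30 FPKM in the other 8.

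Among the myosin heavy chain genes, that of type 2X fibres was highest. Myh1 read 1.73, 58.9 and 0.13 FPKM in T1DE, 33.8, 50.1 and 14.1 FPKM in T1DC, 38.0, 13.1 and 19.3 FPKM in DIOE, 23.3, 44.2 and 0 FPKM in DIOC, 0.02, 0.06 and 0.42 FPKM in NDE, and 0.03, 13.4 and 1.71 FPKM in NDC. Myh4, the heavy chain of type 2B fibres, read 0.15, 3.37 and 0.67 FPKM in T1DE, 2.82, 9.08 and 3.73 FPKM in T1DC, 15.3, 2.68 and 4.86 FPKM in DIOE, 6.69, 19.0 and 0.01 FPKM in DIOC, 0, 0.32 and 0 FPKM in NDE, and 0.01, 2.77 and 0.49 FPKM in NDC. Myh1 exceeded Myh4 in all 10 Krt13-high libraries.

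Myh2, the heavy chain of type 2A fibres, was nearly absent from the tables: 0.02, 0.14 and 0.14 FPKM in T1DE, 0.10, 0.13 and 0 FPKM in T1DC, 0.18, 0.04 and 0.01 FPKM in DIOE, 0.01, 0.71 and 0.02 FPKM in DIOC, 0, 0.01 and 0.14 FPKM in NDE, and 0, 0.01 and 0 FPKM in NDC. The heavy chain genes lie side by side on chromosome 11 and are alike in sequence. Myh1 shares 19.7% of its 50-base words with Myh2 and 10.53% with Myh4, so the division of reads among the 3 genes carries an uncertainty that FPKM does not show.

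Mylpf, the fast regulatory light chain, read 5.97, 179 and 3.65 FPKM in T1DE, 97.1, 163 and 41.8 FPKM in T1DC, 206, 69.0 and 83.8 FPKM in DIOE, 90.3, 159 and 1.22 FPKM in DIOC, 2.32, 1.54 and 3.50 FPKM in NDE, and 2.39, 41.0 and 6.99 FPKM in NDC. Myl1, the essential light chain, ran from 18.3 to 86.5 FPKM in the Krt13-high libraries, but NDE1, with 0.40 FPKM of Acta1, held 30.2 FPKM of it. Actn3, the alpha-actinin of the fast Z-disc, kept to the general order, from 5.30 to 37.5 FPKM against at most 1.14 FPKM in the other 8.

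Calcium handling genes were low except for the pump. Atp2a1 (SERCA1) ran from 17.8 to 76.2 FPKM in the Krt13-high libraries against at most 3.95 FPKM in the other 8. Pvalb, the calcium buffer of fast fibres, read 0.12, 4.48 and 0.72 FPKM in T1DE, 3.02, 6.64 and 0.99 FPKM in T1DC, 7.17, 4.23 and 5.31 FPKM in DIOE, 6.51, 12.7 and 0 FPKM in DIOC, 0.06, 0.30 and 0.25 FPKM in NDE, and 0, 3.04 and 0.37 FPKM in NDC. The release channel gene Ryr1 read 0.27, 3.56 and 0.28 FPKM in T1DE, 2, 3.31 and 0.99 FPKM in T1DC, 2.93, 0.97 and 1.33 FPKM in DIOE, 1.71, 3.13 and 0.16 FPKM in DIOC, 0.18, 0.10 and 0.28 FPKM in NDE, and 0.14, 1.12 and 0.39 FPKM in NDC. Both kept the 10 libraries above the other 8, by a small margin: for Pvalb the lowest of the 10 was 0.99 and the highest of the 8 was 0.72 FPKM.

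The energy genes had the highest floor. Ckm, muscle creatine kinase, read 6.60, 181 and 7.92 FPKM in T1DE, 103, 163 and 63.7 FPKM in T1DC, 280, 80.2 and 119 FPKM in DIOE, 131, 232 and 3.07 FPKM in DIOC, 19.6, 3.47 and 3.10 FPKM in NDE, and 2.84, 65.6 and 22.0 FPKM in NDC. Muscle enolase (Eno3) was never under 6.21 FPKM and muscle glycogen phosphorylase (Pygm) never under 5.23 FPKM. For these 2 genes, and for Myl1 and Krt5, the 2 ranges overlapped: Eno3 in NDE1 (29.9 FPKM) lay above T1DC3 (19.4 FPKM), and Pygm in NDE1 (15.1 FPKM) above T1DC3 (13.6 FPKM).

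**Figure D2:**
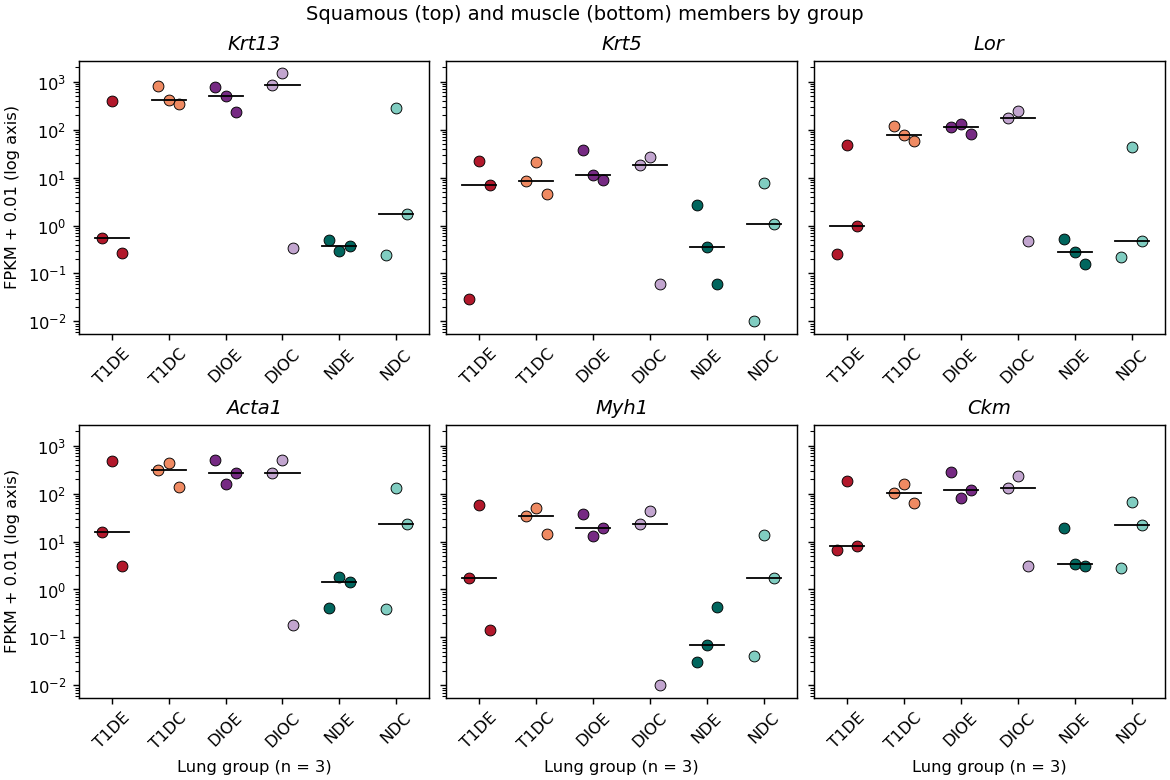
FPKM plus 0.01 on a log axis for 3 squamous members (Krt13, Krt5, Lor) and 3 muscle members (Acta1, Myh1, Ckm) in the 6 lung groups, 1 point per library and a line at the median (n = 3). T1DC and DIOE have all their points high and NDE all low, while T1DE, DIOC and NDC each hold both high and low libraries.

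Over all members, 25 of 31 had every Krt13-high library above each of the other 8, 12 of the 14 squamous and 13 of the 17 muscle genes. Krt6a, Krt5, Myh2, Myl1, Eno3 and Pygm did not. The split was set by Krt13, itself a member, and the members were chosen for varying together, so this count is a description. The share of all genes with the same separation was not counted. The largest step between neighbouring libraries fell at this place for 11 squamous and 12 muscle members. On the log2(FPKM + 1) scale this step was 3.89 to 6.44 for 10 of the 11 squamous members, Krt13 having the largest, and 1.52 for Sprr1a. For the 12 muscle members it was 0.50 (Ryr1) to 2.42 (Acta1), so that Sprr1a lay within their range. Krt5 and Krt14 had their largest steps elsewhere, of 0.86 and 0.85.

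The share of all FPKM taken by the members shows their weight in a library. The 14 squamous genes summed to 0.152% to 0.731% of all FPKM in the Krt13-high libraries, and the 17 muscle genes to 0.0971% to 0.361%. The highest shares were those of DIOC2 for the squamous and DIOE1 for the muscle genes. In the other 8 libraries the squamous share was at most 0.00267% and the muscle share at most 0.0276%. In bulk tissue, a smaller number of cells of a type and less RNA per cell cannot be told apart.

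The mean log2(FPKM + 1) of the 14 squamous members and that of the 17 muscle members went together over the 18 libraries, with Pearson's r of 0.97 and Spearman's rho of 0.91, and the r was 0.95 for deviations from the group means. The pooled r mostly restates that libraries fell into separate clusters, so it was also taken within each. Among the 10 Krt13-high libraries r was 0.64 and rho 0.70, and r dropped to 0.38 without DIOC2 and NDC2, the 2 farthest from the median squamous mean, so the relation there rests largely on those libraries. Among the other 8 libraries r was 0.60 and rho 0.57, and r was 0.87 without NDE1 and T1DE3. These values have no test, since the sets were chosen for this pattern, and all points of a set share libraries and depth.

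**Figure D3:**
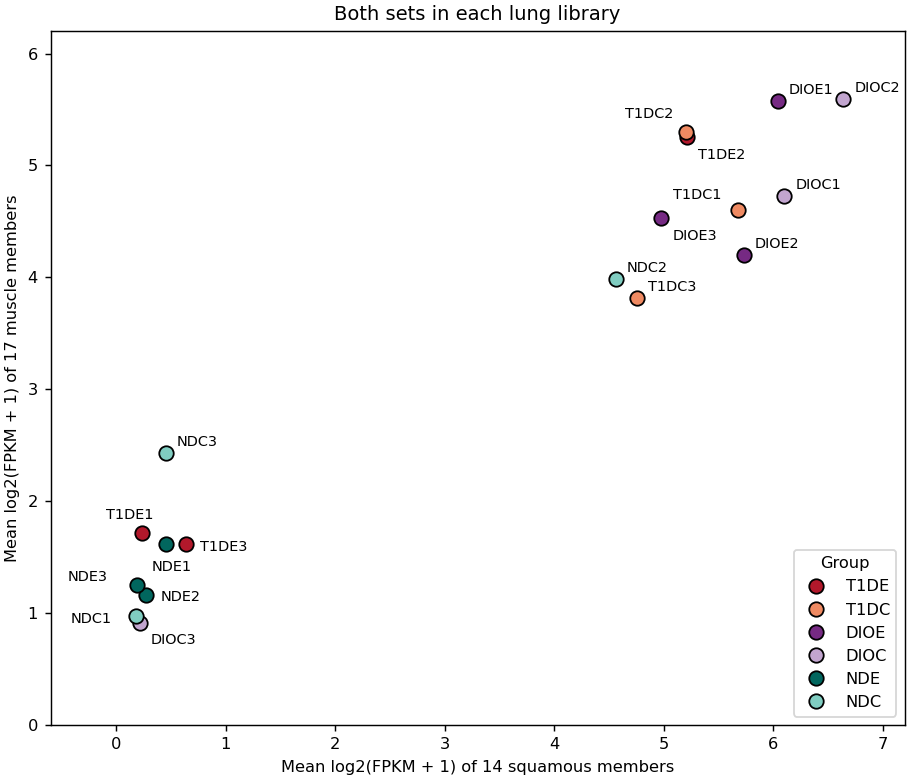
Mean log2(FPKM + 1) of the 17 muscle members (vertical axis) against that of the 14 squamous members (horizontal axis), 1 labelled point per lung library, coloured by group. The 8 libraries at the lower left have squamous means up to 0.64 and muscle means up to 2.43, and the 10 at the upper right have squamous means from 4.57 and muscle means from 3.81, with no library between.

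Within the Krt13-high libraries the amount of muscle was not fixed by the amount of squamous transcript. The ratio of Acta1 to Krt13 was 1.20 in T1DE2, 0.391, 1.06 and 0.411 in T1DC1 to T1DC3, 0.643, 0.320 and 1.15 in DIOE1 to DIOE3, 0.311 and 0.335 in DIOC1 and DIOC2, and 0.452 in NDC2, a range of 3.87 times. Both high and low ratios occurred within T1DC and within DIOE. Within muscle the ratios were tighter. Ckm over Acta1 varied 1.72 times and Mylpf over Acta1 1.44 times over the same 10 libraries.

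Over all pairs of the 27 members at 1 FPKM or more in each Krt13-high library, the SD of the log2 ratio had a median of 0.32 for 91 muscle pairs, 0.46 for 78 squamous pairs and 0.79 for 182 pairs across the sets. The tightest pair was Tnnc2 with Tnni2 (SD 0.09), subunits of one troponin complex, and the tightest squamous pair was Lor with Sprr1a (SD 0.19), both in the epidermal differentiation complex on chromosome 3. Pairs share genes and libraries, so these medians are descriptions.

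Muscle itself was not uniform. Myh4 over Myh1 ran from 0.0573 in T1DE2 to 0.430 in DIOC2, a range of 7.51 times and the widest ratio SD of any muscle pair (0.92). Pvalb, which in mouse muscle is most abundant in type 2B fibres, ran over Acta1 from 0.00709 in T1DC3 to 0.0263 in DIOE2. These extremes were not those of Myh4 over Myh1, which was 0.264 in T1DC3 and 0.205 in DIOE2. The heavy chain ratio was 0.0573 in T1DE2, 0.0835, 0.181 and 0.264 in T1DC1 to T1DC3, 0.403, 0.205 and 0.251 in DIOE1 to DIOE3, 0.287 and 0.430 in DIOC1 and DIOC2, and 0.207 in NDC2. T1DC and DIOE libraries overlapped on it.

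The basal keratins departed from their own set. Among the 10 Krt13-high libraries Krt5 had r of 0.93 with the muscle mean and 0.62 with the mean of the other squamous members, and Krt14 had 0.88 and 0.66. They were the only 2 of the 13 squamous members at 1 FPKM or more in all 10 to be nearer to the muscle mean, and none of the 14 muscle members was nearer to the squamous mean. At the other end stood envelope and defence genes, with r to the muscle mean of 0.28 for Defb4, 0.29 for Sprr1a, 0.39 for Crct1 and 0.40 for Lor. The ratio of Krt5 to Krt13 varied 5.23 times, from 0.0104 in T1DC1 to 0.0542 in T1DE2. With 10 libraries chosen by their Krt13 level, these correlations are descriptions without a test.

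**Figure D4:**
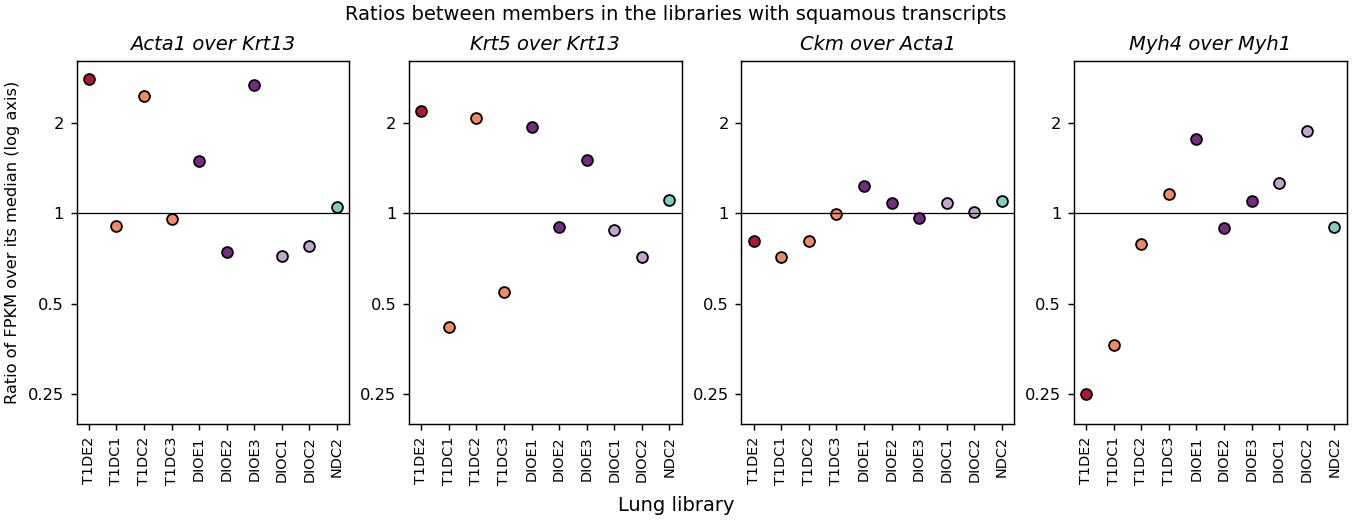
Ratios of FPKM between pairs of members in the 10 Krt13-high lung libraries, each divided by its own median over the 10 and drawn on a log axis, 1 point per library. Ckm over Acta1 stays near 1, while Acta1 over Krt13, Krt5 over Krt13 and Myh4 over Myh1 spread over 3.87, 5.23 and 7.51 times.

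The members lie at many places in the genome. By RefSeq positions on GRCm38.p6 they fall on 9 chromosomes, with 7 on chromosome 7 (6 muscle genes and Krtdap), 6 on chromosome 11 (the 3 heavy chains, Eno3, Krt13 and Krt14), 5 on chromosome 3 (all in the epidermal differentiation complex) and 4 on chromosome 15 (Krt4, Krt5, Krt6a and Pvalb). Start-site windows of 300 bases, 250 before and 50 after, were at hand from RefSeq for 23 of the 31 members. Those of Acta1, Mylpf, Krt13 and Lor are shown because these genes carry the pattern described above and because they differ in the short motifs they hold. Capitals mark the TATAAA box, the E-box CAGCTG, the AP-1 type site TGANTCA and the CArG box, each searched on both strands:

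Acta1 (chr8:123894726-123895025, minus strand): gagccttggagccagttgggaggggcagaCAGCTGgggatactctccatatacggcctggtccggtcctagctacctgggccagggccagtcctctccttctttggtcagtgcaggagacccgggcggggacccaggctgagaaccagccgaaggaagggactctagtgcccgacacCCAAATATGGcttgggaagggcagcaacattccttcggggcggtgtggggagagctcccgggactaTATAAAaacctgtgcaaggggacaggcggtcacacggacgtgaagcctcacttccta
Mylpf (chr7:127211358-127211657, plus strand): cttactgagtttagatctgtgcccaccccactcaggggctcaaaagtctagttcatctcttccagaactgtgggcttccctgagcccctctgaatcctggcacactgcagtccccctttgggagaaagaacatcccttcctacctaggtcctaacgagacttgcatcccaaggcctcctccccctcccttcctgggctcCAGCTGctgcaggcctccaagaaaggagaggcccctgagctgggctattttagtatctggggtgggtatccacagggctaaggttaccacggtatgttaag
Krt13 (chr11:100121517-100121816, minus strand): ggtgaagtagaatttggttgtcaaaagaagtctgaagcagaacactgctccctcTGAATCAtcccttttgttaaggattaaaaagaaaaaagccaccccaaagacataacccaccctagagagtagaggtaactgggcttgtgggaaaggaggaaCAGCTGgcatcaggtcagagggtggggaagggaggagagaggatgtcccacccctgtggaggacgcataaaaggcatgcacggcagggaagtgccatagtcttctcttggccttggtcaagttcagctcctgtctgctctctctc
Lor (chr3:92083093-92083392, minus strand): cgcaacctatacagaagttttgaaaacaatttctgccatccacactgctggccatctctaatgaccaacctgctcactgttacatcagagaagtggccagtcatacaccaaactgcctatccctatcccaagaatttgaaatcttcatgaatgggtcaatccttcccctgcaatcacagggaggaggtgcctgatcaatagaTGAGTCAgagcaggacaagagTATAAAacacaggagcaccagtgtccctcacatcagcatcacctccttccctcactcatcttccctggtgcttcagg

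The Acta1 window holds the E-box, a CArG box and a TATAAA box, and the Mylpf window holds the E-box alone. The Krt13 window shown holds the AP-1 type site and the E-box, and the Lor window the AP-1 type site and a TATAAA box. A second Krt13 window (chr11:100120528-100120827), not shown, holds the AP-1 type site without the E-box. The E-box CAGCTG, to which myogenic factors among others can bind, was in windows of 8 of the 13 muscle genes and 5 of the 10 squamous genes, beside 16.3% of all 32851 windows. The AP-1 type site TGANTCA was in windows of 1 muscle gene (Myh1) and 5 squamous genes, beside 7.81% of all windows, and the TATAAA box in 5 muscle and 6 squamous genes beside 13.6%. The CArG box was in 2 muscle genes and 0 squamous genes beside 1.63%, and the MEF2 box in 0 of either beside 0.557% of all windows. The TATAAA box can lie within a CArG or MEF2 box. Members were counted as genes and the background as windows. A gene such as Krt13 can have more than 1 window, so the counts and the shares beside them differ in unit. A match is a run of letters and not a measured binding site.

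Of the study's 7 comparisons, 4 set mice with a metabolic disorder against ND-fed mice, and 3 set PM exposure against filtered air. In each, 29 members passed the filter of 1 FPKM in at least 3 lung libraries (13973 genes), all but Krt6a and Myh2. A gene was called at an adjusted p under 0.05 by limma with Benjamini-Hochberg adjustment and a fold over 1.5. No member was called in any of the 7 lung comparisons. The rule that chose the members used these same lung values, so the counts below are descriptions and are printed beside the share of all genes.

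For T1DE against T1DC, 0 of 29 members were called, with 0.115% of all genes called higher and 0.0501% lower. All 29 had a lower mean log2(FPKM + 1) in T1DE, with a median log2 fold change of -3.70 for 13 squamous and -2.10 for 16 muscle members, against -0.00 over all genes. Krt13 averaged 135 ± 233 FPKM in T1DE and 517 ± 247 FPKM in T1DC (SD, n = 3 each), a log2 fold change of -5.71 (SE 2.59, limma adjusted p = 0.407). Crct1, Lor, Sprr3 and Sprr1a had all 3 T1DE libraries below all 3 T1DC libraries, which was so for 7.96% of all genes. With Krt13 they were the 5 members under an unadjusted p of 0.05 with a fold over 1.5, beside 1.09% of all genes. T1DE2 was the only Krt13-high library of T1DE.

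For DIOE against DIOC, 0 of 29 members were called, as was 0% of all genes in either direction. The mean log2(FPKM + 1) was higher in DIOE for all 29, with median log2 fold changes of 1.43 for squamous and 1.11 for muscle members against -0.00 over all genes. Acta1 averaged 308 ± 171 FPKM in DIOE and 254 ± 249 FPKM in DIOC (SD, n = 3 each), with a log2 fold change of 2.38 (SE 2.10, limma adjusted p = 1.00). For Krt13 the plain means had the opposite order, 502 ± 268 FPKM in DIOE and 778 ± 746 FPKM in DIOC, while its log2 fold change was 1.92 (SE 2.59, limma adjusted p = 1.00). No member was under an unadjusted p of 0.05, beside 0.0573% of all genes higher in DIOE, and in no member did all DIOE libraries exceed all DIOC libraries, beside 3.06% of all genes. The sign hung on DIOC3, the only library of DIOC without high Krt13: without it the log2 fold change was -0.38 for Acta1 and -1.32 for Krt13.

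For NDE against NDC, 0 of 29 members were called, as was 0% of all genes. All 29 had a lower mean log2(FPKM + 1) in NDE, with median log2 fold changes of -1.55 for squamous and -1.09 for muscle members against -0.04 over all genes. Acta1 averaged 1.20 ± 0.712 FPKM in NDE and 51.3 ± 69.2 FPKM in NDC (SD, n = 3 each), with a log2 fold change of -2.96 (SE 2.10, limma adjusted p = 1.00). No member was under an unadjusted p of 0.05, beside 0.215% of all genes lower in NDE, and in no member did all NDE libraries lie below all NDC libraries, beside 5.77% of all genes. Krt13 in NDC1, at 0.23 FPKM, was below all 3 NDE libraries. Without NDC replicate 2, the Krt13-high library of NDC, the log2 fold change was -1.46 for Acta1 and -0.40 for Krt13, and without NDC replicate 1 it was -4.75 and -4.34.

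For DIOE against NDE, the comparison with the widest separation, 0 of 29 members were called, with 0.00716% of all genes called higher. All 29 members had every DIOE library above every NDE library, which 5.23% of all genes did, and 28 were under an unadjusted p of 0.05 with a fold over 1.5, beside 1.88% of all genes, Eno3 being the exception. Krt13 averaged 502 ± 268 FPKM in DIOE and 0.383 ± 0.107 FPKM in NDE (SD, n = 3 each), a log2 fold change of 8.35 (SE 2.59, limma adjusted p = 0.685). For Acta1, at 308 ± 171 FPKM in DIOE and 1.20 ± 0.712 FPKM in NDE, the log2 fold change was 7.05 (SE 2.10, limma adjusted p = 0.685). The median over squamous members was 5.74 and over muscle members 3.94, against 0.00 over all genes. Fitted on these 2 groups alone, 20 of the 29 were called higher, among 107 genes called in all. The fit of all 18 libraries pools the spread of all 6 groups, and 3 of these hold both Krt13-high and other libraries.

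For DIOC against NDC, 0 of 29 members were called, with 0.0644% of all genes called higher, and Sprr1a alone was under an unadjusted p of 0.05 (log2 fold change 1.98, SE 0.87, limma adjusted p = 0.421), beside 1.32% of all genes. Median log2 fold changes were 2.88 for squamous and 1.501 for muscle members against -0.03 over all genes, and in no member were all DIOC libraries above all NDC libraries, beside 5.52% of all genes. With array weights, which give less weight to libraries far from their group, 17 members were called higher among 705 genes.

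For T1DC against NDC, 0 of 29 were called, with 0.0787% of all genes called higher. In 17 members the T1DC libraries lay above all NDC libraries, 11 squamous and 6 muscle, which 9.13% of all genes did, and 11 were under an unadjusted p of 0.05 with a fold over 1.5, beside 1.76% of all genes. Lor had a log2 fold change of 4.28 (SE 1.77, limma adjusted p = 0.352) and Acta1 of 4.03 (SE 2.10, limma adjusted p = 0.444). Median log2 fold changes were 3.98 for squamous and 2.39 for muscle members against -0.04 over all genes.

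For T1DE against NDE, 0 of 29 were called, with 0.179% of all genes called higher, and none was under an unadjusted p of 0.05, beside 0.794% of all genes. Median log2 fold changes were 1.85 for squamous and 1.65 for muscle members against 0.00 over all genes. In 7 members, Krtdap, Acta1, Tnnt3, Neb, Mylpf, Actn3 and Atp2a1, the T1DE libraries lay above all NDE libraries, which 9.78% of all genes did. T1DE1 and T1DE3 took part in this with low levels, Acta1 being 16.1 and 3.11 FPKM there against at most 1.77 FPKM in NDE. Without T1DE replicate 2 the log2 fold change was 0.013 for Krt13 and 1.99 for Acta1. Comparisons that name the same group share its libraries, so the 7 results are not separate observations.

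Other genes of the muscle apparatus followed the members in part. Their lists were written with earlier results of these data known, so the counts below are descriptions. Of 30 further sarcomere genes 29 passed the filter, and 10 of these were under an unadjusted p of 0.05 with a fold over 1.5 and higher in DIOE than in NDE, beside 1.88% of all genes, with 0 called. In T1DC against NDC and in T1DE against NDE 1 of the 29 was higher by this rule, beside 1.76% and 0.794% of all genes, and in the other 4 comparisons 0 were. Their mean had r of 0.95 with the muscle mean and 0.52 with the squamous mean in the Krt13-high libraries. The sum of the list ran from 417 FPKM in NDE3 to 1268 FPKM in DIOC2, with Tpm1, Cryab and Des highest, which smooth muscle and other lung cells also make. In NDE1 this sum was 835 FPKM, above 5 of the Krt13-high libraries, although the 17 muscle members summed to 107.5 FPKM there. Of 17 genes of calcium release tested, 4 were higher in DIOE than in NDE at an unadjusted p of 0.05. Their mean had r of 0.94 with the muscle mean, and Casq1, the calcium store of fast fibres, ran from 2.76 FPKM to 9.96 FPKM in 9 of the Krt13-high libraries and was 1.43 FPKM in T1DC3. Of 18 further genes of muscle energy supply, among them Aldoa and Fabp3, 1 was higher in DIOE than in NDE by the same rule, and their mean had r of 0.55 with the muscle mean.

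Slow-fibre genes gave a divided picture. The slow heavy chain Myh7 lay between 1.79 and 4.72 FPKM, slow troponin T Tnnt1 between 0.43 and 1.74 FPKM and slow troponin I Tnni1 at or under 0.55 FPKM in all 18 libraries, and for each the ranges of the Krt13-high and the other libraries overlapped. Myl3, a light chain of slow and ventricular muscle, instead ran from 18.1 to 78.3 FPKM in the Krt13-high libraries against at most 4.76 FPKM in the other 8. The ventricular light chain Myl2 was at or under 0.46 FPKM everywhere. Myod1 and Myog, which drive muscle differentiation, were at or under 0.39 and 0.72 FPKM. Of the 14 myogenic regulators listed, 6 passed the filter, Mef2a and Mef2d being highest, and 8 never reached 1 FPKM. The list mean had r of 0.96 with the muscle mean in the Krt13-high libraries, the highest r with it of the 24 lists. The list sum moved little, from 62.0 FPKM in DIOC3 to 80.5 FPKM in DIOC2 over the 18 libraries. Of the 6 genes that passed, 1 was higher in T1DC than in NDC, beside 1.76% of all genes. The rule was an unadjusted p of 0.05 with a fold over 1.5. This list too was written with earlier results known, so the count is a description.

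Further cornified envelope genes went with the squamous members. Of 39 listed, 28 passed the filter. At an unadjusted p of 0.05 and a fold over 1.5, 22 of these were higher in DIOE than in NDE, beside 1.88% of all genes, 14 were higher in T1DC than in NDC, beside 1.76%, and 12 were higher in DIOC than in NDC, beside 1.32%. By the same rule 10 were lower in T1DE than in T1DC, beside 1.09% of all genes, and 0 changed in the other 3 comparisons. None was called in any comparison. The list was written with earlier results of these data known, so these counts are descriptions. Genes such as Lce3a and Cnfn passed the filter only through the Krt13-high libraries, among which are all those of DIOE. Lce3a ran from 15.3 to 119 FPKM in the Krt13-high libraries against at most 0.74 FPKM in the other 8, and Cnfn, cornifelin of the envelope, from 16.4 to 60.6 FPKM against at most 0.16 FPKM. Among other keratins Krt78 had the same course, at 3.10 to 15.7 FPKM against at most 0.13 FPKM. The epidermal keratins Krt1 and Krt10 were at or under 0.33 and 1.22 FPKM, and Krt16 at or under 0.04 FPKM, in all libraries.

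Krt15, a basal keratin of squamous and airway epithelium, read 0.31, 34.9 and 9.71 FPKM in T1DE, 12.2, 19.8 and 5.37 FPKM in T1DC, 45.6, 31.1 and 25.7 FPKM in DIOE, 39.6, 40.9 and 0.16 FPKM in DIOC, 15.9, 2.46 and 0.32 FPKM in NDE, and 0.38, 12.9 and 5.84 FPKM in NDC. Outside the Krt13-high libraries it was above 5 FPKM in NDE1, T1DE3 and NDC3. The basal factor Trp63 had at most 2.06 FPKM.

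Genes of other tissues varied as well, some in step with the members and some not. In the Krt13-high libraries the mean of 11 smooth muscle genes had r of 0.78 with the muscle mean and 0.51 with the squamous mean, and that of the Schwann cell genes had 0.74 with each. In the other 8 libraries the r values were 0.45 and 0.49 for smooth muscle and 0.65 and 0.98 for Schwann cell genes. Brown fat genes summed to 593 FPKM in T1DE2, 417 FPKM at most in DIOC and 375 FPKM at most in NDC, but to 9.72 to 12.4 FPKM in T1DC, where all 3 libraries had muscle and squamous transcripts. Ucp1, which uncouples brown fat mitochondria, was 373 FPKM in T1DE2 and 0.10, 0.07 and 0.17 FPKM in T1DC. Atrial genes did not follow the members either: Nppa was 708 FPKM in NDE1, where Krt13 was 0.50 FPKM, 423 FPKM in NDC2 and 13.0 to 31.1 FPKM in T1DC.

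NDE1 joined a high cardiac sum (1994 FPKM for 12 genes) to the Myl1, Ckm, Eno3 and Pygm values named above, and its Acta1 of 0.40, Tnnc2 of 0.32 and Myh1 of 0.02 FPKM were among the lowest of all. Ckm and Eno3 are made by heart as well as skeletal muscle. NDC3 and T1DE1 differed from NDE1, having Acta1 at 23.5 and 16.1, Tnnc2 at 9.29 and 4.38 and Myh1 at 1.71 and 1.73 FPKM, with Krt13 at 1.71 and 0.54 FPKM. T1DE1 had the lowest sums of cardiac genes (117 FPKM), brown fat genes (7.85 FPKM) and airway gland genes (19.1 FPKM). The part of these tissues in the members' values was not tested.

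Single genes of cartilage, airway glands and club cells were read in all 18 libraries. Of 12 cartilage genes with values, 6 passed the filter and 4 never reached 1 FPKM, and the 12 summed to 12.1 FPKM in NDC1. Chad of cartilage ran from 11.1 FPKM in NDC1 to 50.8 FPKM in DIOE3, Bpifb1 of airway glands and surface cells from 4.82 FPKM in T1DE1 to 266 FPKM in DIOE3, and Scgb1a1 of club cells from 34236 to 57498 FPKM. In the Krt13-high libraries the cartilage mean had r of 0.60 with the squamous and 0.06 with the muscle mean, and in the other 8 libraries 0.99 and 0.59. Of thyroid genes the defining Tg was at or under 0.45 FPKM in all 18 libraries. The alveolar type 2 list had r of -0.50 with the squamous mean in the Krt13-high libraries and -0.84 in the other 8.

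**Figure D5:**
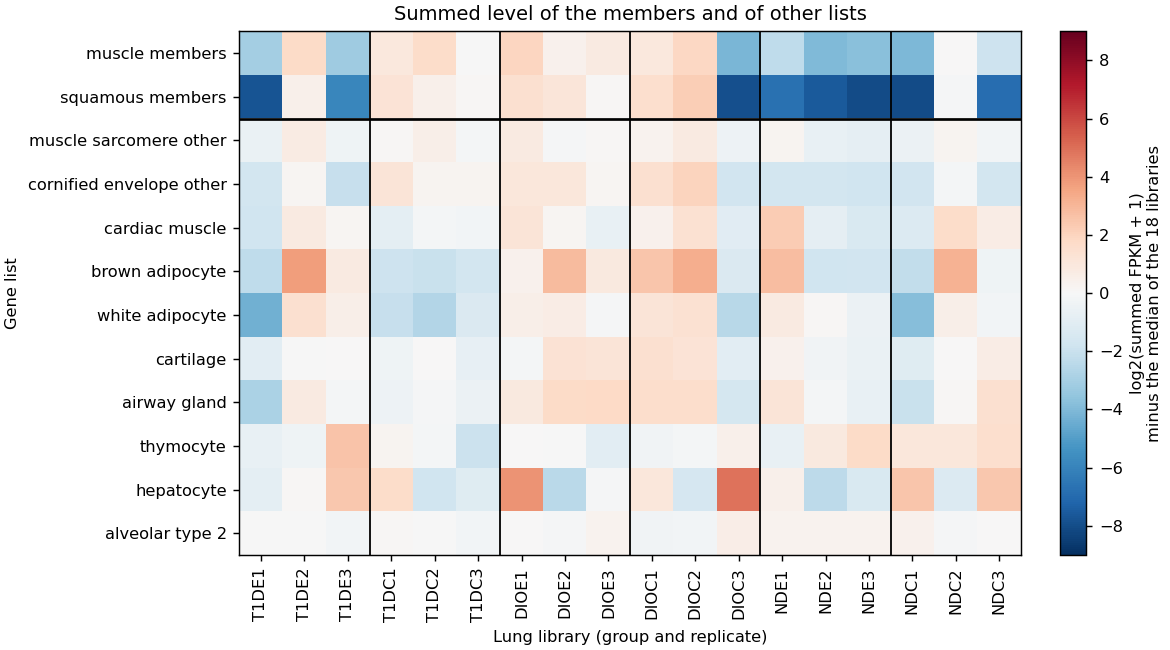
Summed FPKM of the muscle and squamous members and of 10 other gene lists in each lung library, as log2(sum + 1) minus the median of the 18 libraries. The cornified envelope row follows the squamous members, and the sarcomere row follows the muscle members except in NDE1, where it is high. The brown fat and cardiac rows are high in NDE1 and in some of the Krt13-high libraries, and the brown fat row is low in T1DC. The hepatocyte row is highest in DIOC3 and DIOE1, and the thymocyte row in T1DE3.

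Outside the members and lists, the tested genes nearest to the squamous mean over the 18 libraries by Pearson's r were Calm4 and Gm94 (0.99 each), Serpinb12 (0.99), Teddm3 and Crabp2 (0.98 each). Calm4 was at 15.2 to 74.8 FPKM in the Krt13-high libraries and at most 0.12 FPKM elsewhere. Nearest to the muscle mean were Sim2 and Ctxn3 (0.98 each), Mylk2 and Krt32 (0.97 each) and Lgals7 (0.97). Mylk2 is the myosin light chain kinase of skeletal muscle, whereas Krt32 and Lgals7 are epithelial genes, and Lgals7 ran from 41.7 to 179 FPKM in the Krt13-high libraries against at most 4.32 FPKM in the other 8. These r values span both clusters of libraries.

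Liver libraries of the same groups, which the choice of members did not use, held low levels of most of these transcripts. Of the 31 members 27 stayed under 1 FPKM in all 18 liver libraries, and Krt6a, Lce3b and Defb4 were at 0 in all of them. Krt13 reached at most 0.07 FPKM, Acta1 0.33 FPKM and Myh1 0.08 FPKM. Not every member was lower in liver than in the lung libraries without high Krt13. Neb lay between 0.28 and 0.97 FPKM in liver, against at most 0.30 FPKM in those lung libraries. The 4 members that reached 1 FPKM in liver were Lor (highest 1.63 FPKM), Mylpf (1.18 FPKM), Eno3 (1.30 to 2.91 FPKM) and Fam25c (5.02 to 23.5 FPKM), and the last 2 passed the filter.

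Fam25c in liver was 9.23, 11.6 and 20.4 FPKM in T1DE, 5.27, 12.6 and 5.02 FPKM in T1DC, 18.6, 14.6 and 15.8 FPKM in DIOE, 23.5, 14.4 and 11.02 FPKM in DIOC, 12.2, 16.9 and 17.1 FPKM in NDE, and 14.9, 13.9 and 20.8 FPKM in NDC. All 3 T1DC values lay below those of NDC, which was so for 3.86% of the 10806 liver genes. It averaged 7.63 ± 4.31 FPKM in T1DC and 16.6 ± 3.75 FPKM in NDC (SD, n = 3 each) and was called lower in T1DC, with a log2 fold change of -1.11 (SE 0.32, limma adjusted p = 0.0338), the only call among 2 members tested in 7 liver comparisons, beside 0.824% of the 10806 liver genes called lower there. The call was lost without T1DC replicate 1 or 3 or NDC replicate 1 or 3. In T1DE against T1DC livers its log2 fold change was 0.81 (SE 0.32, limma adjusted p = 0.303), which did not pass.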

How the data were processed

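Poly(A) RNA was sequenced by the authors on BGISEQ-500. After SOAPnuke filtering they aligned reads to GRCm38 using Bowtie2 and estimated expression using RSEM. The deposited values are FPKM, calculated by the authors per gene and library, for 20098 genes in each of 36 files. Versions, strandedness and annotation were not given in the sources used here. FPKM is relative within a library.

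The 31 members, the motifs and the gene lists were chosen with earlier results of these data known. Genes reaching 1 FPKM in 3 or more libraries of a tissue were fitted on log2(FPKM + 1) using limma 3.58.1 in R 4.3.3 (6 group means over 18 libraries, eBayes with trend, two-sided, Benjamini-Hochberg per comparison). Folds are of FPKM + 1 and understate changes of low genes. The fit was tested on simulated data. Values in every library are given for at least 1 member per role and for the member of each set least correlated with it. From other lists, up to 3 genes of highest mean were to be named, and further ones were named after their values were seen; outside the lists, the 5 genes nearest each set mean were named. Read depth was inferred from the steps between low FPKM values of genes with a single transcript, using GENCODE lengths, and covers counting error only. Shared 50-base words came from GENCODE transcripts and start-site windows from RefSeq (GRCm38.p6). Figures were drawn using matplotlib 3.10.9. The labels do not state whether each replicate library is 1 animal, so p-values measure the spread between libraries. Alternatives changed the pseudocount (0.1), filter, scaling (median-ratio), fold threshold, libraries fitted (compared groups only, or each left out) and weights, or added the replicate number to the model.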

Additional observations from a re-analysis of the deposited data

How the results depend on the processing

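The count of members called in lung stayed at 0 in 5 of the 7 comparisons under every alternative run. In DIOC against NDC it was 17 with array weights, 0 to 1 when a library was left out (1 without DIOC replicate 3), and 0 under the others. In DIOE against NDE it was 20 when the compared groups were fitted alone and 17 with array weights, and 0 under the others. The number of all genes called with array weights in DIOE against NDE is not given here. The members were chosen from these lung values, so these counts are descriptions. The estimate of array weights did not fully converge. In liver the single call became 0 with no filter and was 0 to 1 when a library was left out, 0 without T1DC replicate 1, T1DC replicate 3, NDC replicate 1 or NDC replicate 3.

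The correlation of the muscle and squamous means was 0.97 with a pseudocount of 0.1, with median-ratio scaling and as analysed, 0.96 without the 2 libraries farthest from the median and 0.96 to 0.97 when each library was left out. Taken within clusters, a choice made after seeing the data, it was 0.64 in the 10 Krt13-high libraries and 0.60 in the other 8. The replicate numbers showed no steady pairing of libraries: deviations of same-numbered lung libraries had correlations from -0.60 to 0.76, and no comparison had all 3 pairs over 0.1. Deviations from means of 3 libraries cannot exclude a pairing. The paper states that mice of each model were matched in pairs by body weight, and the labels do not say whether replicate numbers follow these pairs. With replicate number as a block, 0 members were called in each lung comparison, 1 in liver as before, and the correlation of the set means was 0.91.

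Log2 fold changes of Krt13 and Acta1 changed sign in few settings. For DIOE against DIOC, array weights gave -0.59 for Krt13 and -0.37 for Acta1, and leaving out each library gave -1.32 to 3.74 for Krt13 and -0.38 to 3.98 for Acta1, negative only without DIOC replicate 3. For DIOC against NDC, leaving out each library gave -0.077 to 4.47 for Acta1, negative only without NDC replicate 1. In 4 other comparisons the sign held but the size moved with 1 library: leaving out each gave -4.34 to -0.40 for Krt13 and -4.75 to -1.46 for Acta1 in NDE against NDC, -8.44 to -4.27 and -5.00 to -1.56 in T1DE against T1DC, 4.11 to 8.05 and 2.25 to 5.53 in T1DC against NDC, and 0.013 to 4.18 and 1.99 to 5.44 in T1DE against NDE. For Krt13 in DIOC against NDC it gave 1.77 to 6.83. Of the other values of these genes, 158 kept their sign and their side of an adjusted p of 0.05, and 5 kept their sign and passed it, with array weights or the compared groups alone. With 3 libraries per group, each either high or low, a shift of the members between groups and the number of high libraries a group holds cannot be told apart. On a transcript of about 1000 bases, values under about 0.1 FPKM rest on too few reads to be ordered.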
